A study of Mus musculus with 88 samples.

Results

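Cluster 1 is a group of 341 of the 4949 cells in the deposited single-cell table, chosen because the cluster column that the authors deposited at resolution 2.5 assigns them to cluster 1 of 22. The cells came from mouse embryonic stem cells (ESCs) that were left to differentiate as embryoid bodies (EBs), floating aggregates that form cell types of all germ layers once the cytokine LIF is withdrawn. Single live cells were sorted into plates at days 0, 4, 7 and 10 from 4 genotypes, namely wild type (WT) and lines null for Eed, Jarid2 or Mtf2, with 1 library for each genotype and day and 16 libraries in all. All cells had been grown in serum and LIF before day 0, and day 0 cells were undifferentiated. The labels give E14 as the strain of every single-cell library, whereas the methods of the study describe each null line as a separately made line with its own matched WT (J1 for the Eed line, JM8 for the Jarid2 line and Pcl1-3 WT for the Mtf2 line). In the single-cell data the only WT was E14, so genotype and parental line cannot be told apart, and each genotype was represented by a single line. Each genotype and day had 1 library, so genotypes at a given day have no replicate, no test between genotypes or days was run on these cells, and all intervals given for them are 95% intervals that cover counting error only. The cluster was defined on the same counts, so its levels against other cells are a description without a test.

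Epiblast cells leave naive pluripotency, the state of the preimplantation embryo and of ESCs in LIF, pass through a formative stage after implantation, and only then become competent for the primitive streak or for neural ectoderm. The formative stage is known for silencing of Klf4, Tfcp2l1 and Zfp42, for the growth factor Fgf5, the POU factor Pou3f1 (Oct6) and the de novo DNA methyltransferase Dnmt3b, and for a new set of Otx2-bound enhancers. Polycomb repressive complex 2 (PRC2) deposits H3K27 methylation at CpG-rich promoters of developmental genes, with Eed as a core subunit, Mtf2 as a DNA-binding subunit of the PRC2.1 form and Jarid2 as a subunit of the PRC2.2 form.

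Promoters of 2 marker genes of cluster 1 are shown because the PRC2.1 subunit Mtf2 is known to bind CpG-rich DNA and both genes are followed through all datasets here. The sequences are from RefSeq on GRCm38.p6, cover 250 bases before to 50 bases after the annotated start on the plus strand, and have every CG in capitals. Fgf5 lies at chr5:98253934-98254233 and Dnmt3b at chr2:153649199-153649498.
Fgf5: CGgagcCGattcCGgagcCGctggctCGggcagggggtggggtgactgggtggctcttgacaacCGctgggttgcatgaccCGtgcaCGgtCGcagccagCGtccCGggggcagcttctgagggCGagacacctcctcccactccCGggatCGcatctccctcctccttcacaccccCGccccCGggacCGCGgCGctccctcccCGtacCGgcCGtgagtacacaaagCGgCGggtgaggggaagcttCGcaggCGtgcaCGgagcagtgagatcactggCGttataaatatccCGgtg
Dnmt3b: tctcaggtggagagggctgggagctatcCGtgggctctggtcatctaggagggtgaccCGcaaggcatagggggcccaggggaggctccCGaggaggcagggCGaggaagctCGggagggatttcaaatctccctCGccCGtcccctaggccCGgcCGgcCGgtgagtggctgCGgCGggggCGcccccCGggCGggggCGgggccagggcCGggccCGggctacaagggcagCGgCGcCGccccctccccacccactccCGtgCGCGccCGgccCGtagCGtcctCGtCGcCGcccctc
The Fgf5 promoter held 29 CpG at a GC content of 68.3%, more CpG than 87.3% of all 27025 promoters in the reference, and the Dnmt3b promoter held 30 CpG at a GC content of 76%, more than 88.5%. Of the 30 leading genes described below, 19 had a promoter entry, and 6 of these (31.6%) were CpG-rich (at least 50% GC and an observed over expected CpG ratio of at least 0.6), beside 34.1% of all promoters, and their median was 12 CpG beside 7. The octamer letters ATGCAAAT, the sequence that POU factors such as Pou3f1 are known to bind, occurred on either strand in 1 of the 19 (5.26%, Pcdh8) and in 1.75% of all promoters.

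The library totals ranged from 1339722 to 3889890 unique molecular identifiers (UMIs, the count of captured mRNA molecules) over 202 to 347 cells, and library medians lay between 4997 and 10603 UMIs a cell. Cluster 1 cells had a median of 7420 UMIs (range 1210 to 30055) and other cells a median of 6567. Levels below are CPM, the UMIs of a gene in the summed cells scaled to a fixed total. Libraries shared the well numbers of the 384-well plate by design (22 wells gave a kept cell in all 16 libraries), so a shared well number does not mark a shared cell.

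The label "epiblast-like" goes with 6 markers, and all of them were higher in cluster 1 than in the sum of the other cells. Since the cluster was made from these same counts, their levels describe the label and do not check it. Penk, which encodes proenkephalin, stood at 90.2 CPM in cluster 1 and 8.03 CPM in the other cells (ratio 11.2, interval 9.46 to 13.3). The next cluster for Penk, cluster 20, stood at 75.3 CPM. Fgf5 stood at 102 against 9.63 CPM (ratio 10.6, interval 9.01 to 12.4), with cluster 21 next at 79.0 CPM. The semaphorin Sema6a stood at 174 against 18.4 CPM (ratio 9.44, interval 8.39 to 10.6), with cluster 11 next at 101 CPM. For Pou3f1, Fgf5, Sema6a, Penk and Dnmt3b the cluster had the highest level of all 22. Pou3f1 stood at 487 CPM against 73.9 in the other cells (ratio 6.59), and the next cluster, cluster 11, stood at 353 CPM. Dnmt3b stood at 1731 against 357 CPM (ratio 4.85), with cluster 21 next at 988 CPM. Otx2, a homeobox factor of epiblast and forebrain, was the exception, at 416 CPM against 144 in the other cells (ratio 2.89) but 464 CPM in cluster 15. The paper's own class for cluster 1 differs from the label used here. The paper grouped clusters 15 and 1 as ectodermal, with enriched Otx2, and gave cluster 1 the anatomy terms cerebral cortex and ectoderm.

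**Figure D1:**
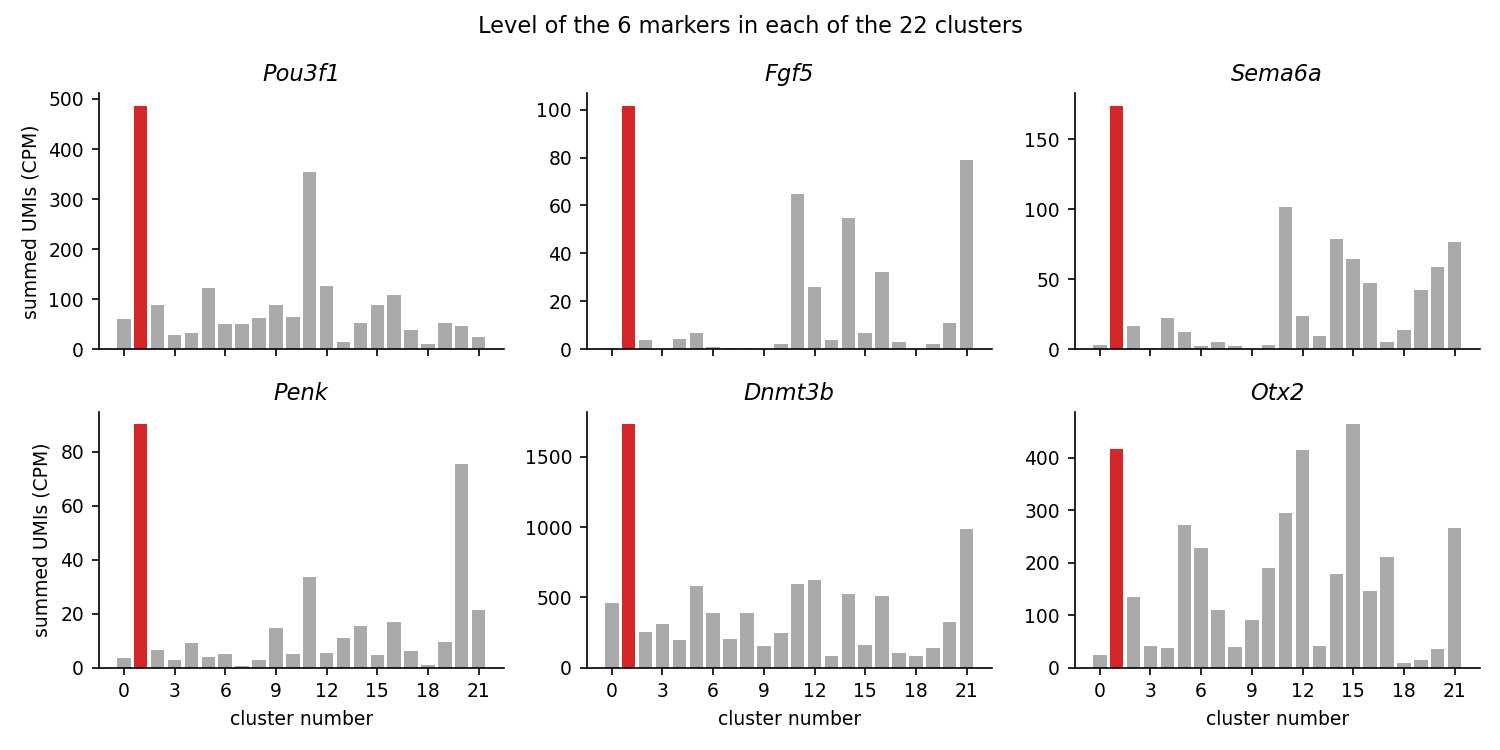
Bars give the level of the 6 markers (CPM of summed UMIs, linear axes from 0) in each of the 22 clusters, with cluster 1 in red and the other clusters in grey. Cluster 1 is the highest bar for Pou3f1, Fgf5, Sema6a, Penk and Dnmt3b, and cluster 15 (464 CPM) lies above it for Otx2.

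In single cells the markers were seen less evenly than the sums show. After each cell was thinned to 2500 UMIs, which left 307 of the 341 cells, Dnmt3b was detected in 87.6% of them, Otx2 in 58.6%, Pou3f1 in 55%, Sema6a in 26.1%, Fgf5 in 20.2% and Penk in 17.6%. At the same depth the lowest shares in other clusters were 9.09% for Dnmt3b and 2.02% for Pou3f1, both in cluster 13, and 0 for Otx2 (cluster 19), Sema6a (cluster 9), Fgf5 (cluster 3) and Penk (cluster 7). The highest shares in other clusters were 62.2% for Dnmt3b (cluster 21), 53.8% for Otx2 (cluster 15) and 41.6% for Pou3f1 (cluster 11). They were 18.9% for Sema6a (cluster 11), 15.6% for Fgf5 (cluster 21) and 15.2% for Penk (cluster 20). The cluster 1 shares depended on depth, and without thinning they were 94.4%, 76.2%, 78.3%, 54.0%, 40.5% and 28.4% in the same order. At least 4 of the 6 markers were detected in 74 thinned cluster 1 cells (24.1%). The whole table held 113 cells with that many markers, and 65.5% of them belonged to the cluster. Cluster 11 held the next highest share, 11.6% (22 cells). None of the 6 was detected in 1.95% of cluster 1 cells (6 cells).

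Cluster 1 was a day 7 population in WT and appeared by day 4 in the Mtf2 null library. In WT it held 0 of 340 cells at day 0 (which allows a share of up to 0.882%, taking the limit of a count of 0 as 3 cells), 2 of 331 at day 4 (0.604%, exact Clopper-Pearson interval 0.0733 to 2.17%), 49 of 316 at day 7 (15.5%, 11.7 to 20.0%) and 0 of 214 at day 10 (up to 1.40%). In the Mtf2 null libraries it held 6 of 347 cells at day 0 (1.73%), 70 of 331 at day 4 (21.1%, 16.9 to 25.9%), 72 of 344 at day 7 (20.9%, 16.8 to 25.6%) and 19 of 321 at day 10 (5.92%, 3.60 to 9.09%). In the Jarid2 null libraries it held 4 of 337 at day 0 (1.19%), 12 of 321 at day 4 (3.74%, 1.95 to 6.44%), 90 of 302 at day 7 (29.8%, 24.7 to 35.3%) and 11 of 264 at day 10 (4.17%, 2.10 to 7.33%). The Eed null libraries held almost no such cells at any day. Their counts were 0 of 340 at day 0 (up to 0.882%), 0 of 320 at day 4 (up to 0.938%), 6 of 319 at day 7 (1.88%, 0.693 to 4.05%) and 0 of 202 at day 10 (up to 1.49%).

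The intervals of the Mtf2 null and WT shares did not overlap at days 4 and 10, and those of the Jarid2 null and WT shares did not overlap at days 7 and 10, whereas at day 7 the Mtf2 null and WT intervals overlapped. Day 7 libraries supplied 63.6% of the cluster, and by genotype the cluster held 51 WT cells (4.25% of 1201), 167 Mtf2 null cells (12.4% of 1343), 117 Jarid2 null cells (9.56% of 1224) and 6 Eed null cells (0.508% of 1181). Restricting the table to cells with at least 2500 UMIs gave similar shares, 15.8% in the WT day 7 library and 32.6% in the Jarid2 null day 7 library. Since the clusters were built on genes that may differ between the lines, the shares are shares of this cluster as the authors defined it. The 7 libraries with at least 10 cluster 1 cells (WT day 7, Mtf2 null and Jarid2 null days 4, 7 and 10) are used for levels by library below.

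**Figure D2:**
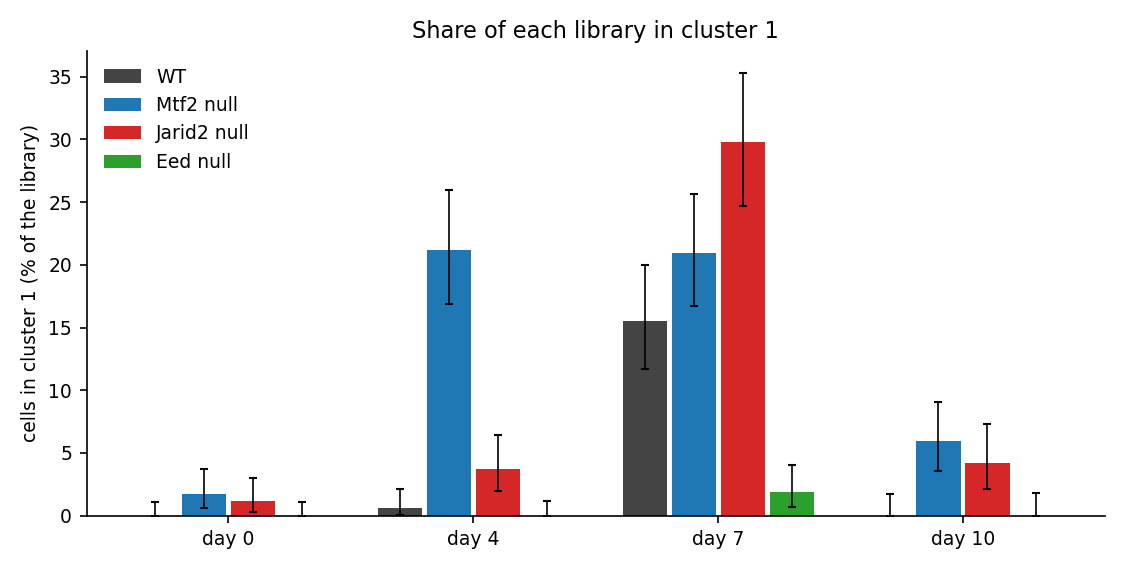
Share of each library's cells that belong to cluster 1 (percent, y axis) by day of differentiation (x axis) for the 4 genotypes, with 95% Clopper-Pearson intervals that cover counting error only. The Mtf2 null share is 21.1% at day 4 and 20.9% at day 7, the WT and Jarid2 null shares peak at day 7 at 15.5% and 29.8%, and the Eed null share is at most 1.88%.

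Within each of these 7 libraries the 6 markers were higher in cluster 1 cells than in the other cells of the same plate, in 7 of 7 libraries for every marker. Libraries are given in the order WT day 7, Mtf2 null days 4, 7 and 10, and Jarid2 null days 4, 7 and 10. Pou3f1 stood at 279, 442, 455, 336, 708, 514 and 535 CPM in cluster 1, and between 36.8 and 133 CPM in the other cells of the same libraries. The WT library was the lowest of the 7 for Pou3f1 and the Jarid2 null day 4 library the highest. Dnmt3b stood at 1260, 1740, 1688, 1903, 2070, 2012 and 854 CPM, with the Jarid2 null day 10 library, which held 11 cells, at the lower end. Fgf5 stood at 131, 80.2, 153, 153, 99.7, 85.1 and 45.5 CPM. Penk had the widest range, at 75.3, 64.4, 151, 260, 29.9, 86.7 and 22.8 CPM, and was highest in the Mtf2 null day 10 library and lowest in the Jarid2 null day 10 library. Sema6a was the most even, at 125, 191, 203, 183, 165, 183 and 228 CPM. Otx2 stood at 373, 451, 342, 359, 489, 479 and 262 CPM. The ratio to the other cells of the same library was smallest for Otx2 (1.39 to 3.29) and reached 23.2 for Fgf5 in the Jarid2 null day 4 library.

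The 30 genes with the largest ratio of cluster 1 to other cells, among 7079 genes with at least 20 CPM and a UMI in at least 10% of cluster 1 cells, had ratios from 13.8 to 3.83 with a median of 5.20. Only Otx2 of the 6 markers was not among them. In 12 of the 30 cluster 1 had the highest level of the 22 clusters and in 9 the next highest. At the lower end Zic5 (3.83) lay just inside the 30 and Zic2 (3.8) and Magel2 (3.79) just outside. Leaving out the cluster 1 cells of any 1 of the 7 libraries kept 23 to 29 of the 30 among the leading genes, the fewest without the Jarid2 null day 7 library. Against other cells of day 7 and day 10 libraries alone, a comparison that leaves out undifferentiated cells, several ratios were smaller by more than 1.5 times, for example Fgf5 from 10.6 to 5.08, Sema6a from 9.44 to 4.51, Car4 from 4.00 to 1.85 and Fst from 3.96 to 1.66, whereas Pou3f1 stood at 6.61 and Dnmt3b at 5.62.

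By role, the leading genes held regulators of transcription, receptors and secreted proteins, transporters and genes of neurons. Among transcription regulators were Pou3f1, Sox3 (40.5 against 9.07 CPM, ratio 4.47), a SoxB1 factor of epiblast and neural progenitors, Sall2 (40.5 against 8.99 CPM, ratio 4.51), a zinc finger factor, and Zic5 (318 against 83.1 CPM, ratio 3.83), a Zic-family factor of epiblast and neural plate. Vrtn, which is known for control of vertebral number, stood at 56.1 against 11.4 CPM. The receptor with the largest ratio was the calcitonin receptor gene Calcr, at 20.6 against 1.49 CPM (ratio 13.8, interval 9.42 to 20.4, 61 UMIs in the cluster). Lpar4, a receptor for lysophosphatidic acid, stood at 340 against 64 CPM (ratio 5.31), and Enpp2 (autotaxin), the secreted enzyme that makes lysophosphatidic acid, stood at 48.0 against 5.95 CPM (ratio 8.05). Both the enzyme and a receptor of this lipid signal were therefore among the 30.

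Secreted proteins and surface enzymes also included Fst (follistatin), which binds activin, and Car4, a carbonic anhydrase anchored at the cell surface. Fst stood at 235 against 59.5 CPM (ratio 3.96), but cluster 14 was higher at 747 CPM. Car4 stood at 184 against 46.1 CPM (ratio 4.00). Transporter genes included Slc35d3 (30.7 against 3.37 CPM, ratio 9.12), the choline transporter Slc5a7 (21.3 against 3.34 CPM, ratio 6.36) and the zinc and manganese transporter Slc39a8 (92.5 against 15.4 CPM, ratio 5.99). Genes better known from neurons or cell adhesion were Penk, the protocadherin Pcdh8 (29 against 5.00 CPM, ratio 5.81), the neurofilament gene Nefm (21.6 against 4.16 CPM), the sialyltransferase St8sia3 (24.3 against 3.88 CPM) and the adhesion molecule Nfasc (45.9 against 8.37 CPM). The 30 genes were chosen for their ratio over these same cells, so counts by library follow largely from that choice and are a description only. In all 16 of the 30 were higher than the other cells in each of the 7 libraries, and 192 of the 210 gene and library pairs were higher. Fst was one of the 14 that were not, since in WT day 7 cluster 1 stood at 463 CPM and the other cells at 485 CPM.

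Across all 9762 genes with at least 10 CPM in cluster 1 or the other cells, 2.75% (268) were at least 2-fold higher in cluster 1 and 7.37% (719) at least 2-fold lower, with a median log2 ratio of -0.023. The list of formative epiblast genes, which holds the 6 markers, had 11 of 19 genes 2-fold higher and 1 lower (the ETS factor Etv4), with a median log2 ratio of 1.53. Beyond the markers and Sox3, Sall2 and Zic5, the higher genes included Zic2 (141 against 37.2 CPM) and Foxd3 (57.1 against 23.3 CPM), a forkhead factor of pluripotent cells. The naive pluripotency list had 0 of 15 higher and 14 lower, with a median log2 ratio of -2.83. Tfcp2l1 stood at 6.08 against 117 CPM, Klf4 at 8.10 against 122 CPM and Zfp42 (Rex1) at 21.3 against 304 CPM. Nanog was the member not lower by 2-fold, at 153 against 196 CPM. The core pluripotency list, which formative cells share with naive cells, had 1 of 10 higher (Lin28b) and 1 lower (Dppa5a, 227 against 844 CPM), with Pou5f1 at 97.6 against 64.9 CPM and Sox2 at 482 against 719 CPM (median log2 ratio 0.15).

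**Figure D3:**
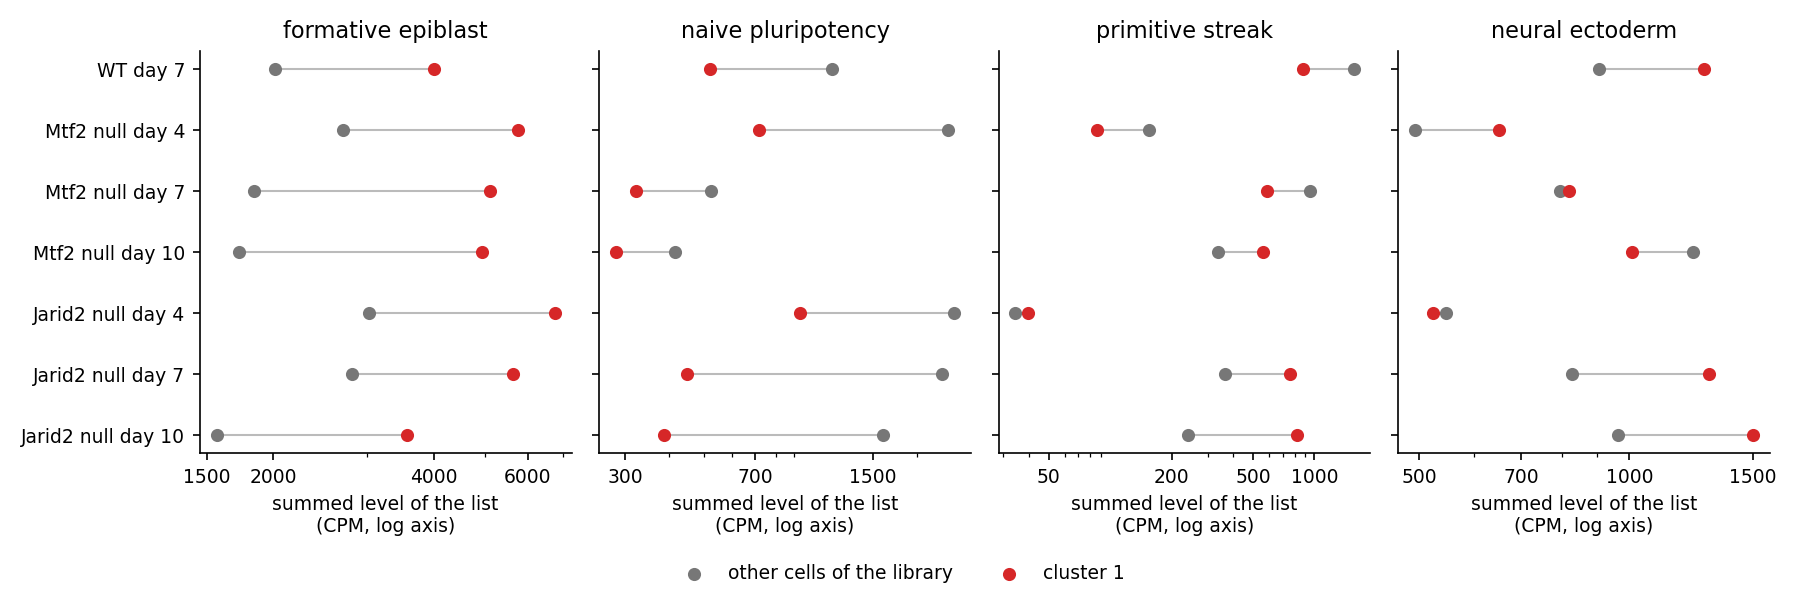
Summed level of 4 gene lists (CPM, log axis) in cluster 1 cells (red) and in the other cells of the same library (grey) for the 7 libraries with at least 10 cluster 1 cells. Formative epiblast sums of cluster 1 (3563 to 6742 CPM) lie above those of the other cells (1565 to 3024 CPM), naive sums lie below those of the same library in all 7, and the primitive streak sums of cluster 1 are below 100 CPM in both day 4 libraries and 558 to 878 CPM in the later ones. The streak list holds Fst, which gives 235 of its 463.3 CPM over the whole cluster.

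By library the summed formative genes of cluster 1 stood between 3563 CPM (Jarid2 null day 10) and 6742 CPM (Jarid2 null day 4) and those of the other cells between 1565 and 3024 CPM. The summed naive genes stood at 521, 715, 321, 283, 938, 449 and 387 CPM in cluster 1 and at 1153, 2441, 523, 414, 2547, 2354 and 1603 CPM in the other cells of the same libraries. The groups overlapped for the naive sum, because other cells of the Mtf2 null day 7 and day 10 libraries were as low as cluster 1 cells of other libraries. DNA methylation genes did not move together. Dnmt3b and, below the 2-fold line, Dnmt3a (283 against 145 CPM) were higher, the cofactor gene Dnmt3l (96.9 against 333 CPM) and Tet2 (17.9 against 86.3 CPM) were lower, and the maintenance methyltransferase Dnmt1 stood at 176 against 193 CPM (1 of 9 higher, 2 lower, median log2 ratio 0.019).

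Markers of the fates that follow the epiblast were mixed in cluster 1. Of the primitive streak list 3 of 8 genes were 2-fold higher and 3 lower (median log2 ratio 0.80). Eomes, a T-box factor of the streak, stood at 98.3 against 39.3 CPM, the ligand Wnt3 at 19.9 against 9.89 CPM and Fst at 235 against 59.5 CPM. Mixl1, Lhx1 and Mesp1 instead stood at 3.71, 3.71 and 2.70 CPM against 13.1, 15.6 and 18.0 CPM. Fst, also a leading gene, gave 235 of the 463.3 CPM of the streak sum in the cluster and 463 of the 878 CPM in WT day 7. The streak sum of cluster 1 was below that of the other cells in WT day 7 (878 against 1554 CPM), Mtf2 null day 4 (86.7 against 155 CPM) and Mtf2 null day 7 (584 against 948 CPM) and above it in the other 4 libraries. Of the neural ectoderm list 4 of 9 genes were higher (Sox1 28.7 against 13.3 CPM, Nes 39.5 against 13.5 CPM, Sox3 and Fabp7) and 0 lower, with a median log2 ratio of 0.77. The defining neural factor Pax6 stood at 8.44 against 11.7 CPM. The summed neural list reached 923 CPM in cluster 1 and 2552 CPM in cluster 15, which was the highest. Of the anterior neural list 3 genes passed the level needed, and En1 (18.6 against 3.06 CPM) was higher and Hesx1 (4.39 against 11.3 CPM) lower (median log2 ratio -0.10). By library the neural ectoderm sum was above that of the other cells in 5 of 7 libraries, and below it in Mtf2 null day 10 (1009 against 1234 CPM) and Jarid2 null day 4 (524 against 546 CPM).

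Mesoderm, endoderm, germ cell and surface ectoderm lists were low, whereas the neural crest and trophoblast sums were near those of the other cells (82.7 against 85.9 CPM and 114 against 142 CPM, each rank 7 of 22). In cluster 1 most of each sum came from 1 gene, Foxd3 (57.1 CPM) for neural crest and Eomes for trophoblast. The mesoderm list had 0 of 9 higher and 9 lower (median log2 ratio -2.74), with a sum of 66.9 CPM in cluster 1 and of 0 to 176 CPM over the 7 libraries. The endoderm list had 0 of 3 higher and 3 lower (median log2 ratio -2.09), with Hnf4a at 0 UMIs. The germ cell list had 5 of 8 lower (-1.62), the surface ectoderm list 4 of 6 lower (-1.75), the trophoblast list 1 of 3 higher (Eomes) and 2 lower (-2.44), and the neural crest list 1 of 4 higher (Foxd3) and 1 lower (-0.54). By library the germ cell sum of cluster 1 was above that of the other cells in Mtf2 null day 7 (175 against 138 CPM) and day 10 (130 against 97.1 CPM). It was below that of the other cells in each of the other libraries. The 15 lowest genes of the cluster were mostly of 2 kinds. Globins formed the first kind, such as the embryonic Hba-x at 30.4 against 780 CPM and Hbb-bh1 at 9.46 against 498 CPM. Their level in the other cells came from cluster 18 (29945 and 19943 CPM), the median of the other clusters was 30.7 and 6.24 CPM, and cluster 1 ranked 12 and 10 of 22, so low globins were shared by most clusters. Naive or germ genes such as Tfcp2l1, Klf4, Zfp42, Tcl1 and Khdc3 formed the other together with the mesenchymal or imprinted genes Col1a2, Dlk1 and H19. The lowest ratio of the 15 that was not a globin was that of Tfcp2l1, 0.0521 (interval 0.0308 to 0.0824). Against other cells of day 7 and day 10 libraries alone it was 0.150, and that of Klf4 was 0.280, of Khdc3 0.292 and of Zfp42 0.218.

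Signal pathways were examined by lists as well. The FGF and ERK list had 3 of 12 genes higher, which were the ligands Fgf5, Fgf8 (60.4 against 18.2 CPM) and Fgf15 (120 against 40.3 CPM), and 2 lower, Fgf4 (58.4 against 148 CPM) and Etv4, so that the ligand genes differed in direction (median log2 ratio 0.086). The Nodal list had 1 of 7 higher, the Nodal inhibitor Lefty1 (160 against 62.6 CPM), and 0 lower (0.66). The Wnt list had 0 of 7 higher and 1 lower, the Wnt inhibitor Dkk1 (5.07 against 33.8 CPM; 0.28). The PRC2 list had 0 of 10 higher and 1 lower, Mtf2, at 174 against 369 CPM (-0.50). Mtf2 null cells made up 49.0% of the cluster. Within WT Mtf2 stood at 303 against 547 CPM, within Jarid2 null at 306 against 469 CPM and within Mtf2 null at 57.6 CPM in both. None of these 3 passed 2-fold, and Eed null cells had 5 UMIs in the cluster (188 against 443 CPM). No gene of the p53 target list (8 read), the S phase list (12), the G2M list (12) or the glycolysis list (10) passed 2-fold, with median log2 ratios of -0.27, 0.10, 0.074 and 0.28. Of the immediate early list, which also moves with cell handling, 3 of 7 were lower (Fos, Hspa1a and Hspa1b; -0.83).

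The targeted genes were read in cluster 1 cells as a check of the labels. Mtf2 stood at 303 CPM in WT, 57.6 CPM in Mtf2 null and 306 CPM in Jarid2 null cells. Jarid2 stood at 290 CPM in WT, 135 CPM in Jarid2 null and 305 CPM in Mtf2 null cells. Eed was at 0 UMIs in the 6 Eed null cells (exact interval up to 139 CPM) and at 171 CPM in WT. Each targeted gene was thus lowest in its own null, and reads remained for Mtf2 and Jarid2. Within WT, Mtf2 was also lower in cluster 1 than in the other cells (303 against 547 CPM), as it was in Jarid2 null cells (306 against 469 CPM). Hprt, which no genotype targets, also differed between the lines, with 2.55 CPM (1 UMI) in WT cluster 1 cells against 520 CPM in Mtf2 null, 459 CPM in Jarid2 null and 226 CPM in Eed null cells.

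The 3 clusters most like cluster 1 were compared with it over all genes with at least 20 CPM in either. Pearson's r of log2(CPM + 10) was 0.918 for cluster 12 (228 cells, 208 of them WT), 0.916 for cluster 5 (315 cells, 251 Jarid2 null) and 0.912 for cluster 14 (190 cells, 91 from WT day 7). These r values share the gene set and the plates and are descriptions. Clusters 12 and 5 differed from cluster 1 in having more naive and fewer streak transcripts. Otx2 did not separate cluster 1 from cluster 12, at 416 CPM in both, whereas Penk stood at 90.2 against 5.43 CPM, Sema6a at 174 against 23.5 CPM, Zfp42 at 21.3 against 297 CPM and Tfcp2l1 at 6.08 against 61.5 CPM. Of the naive list 13 of 14 genes were lower than in cluster 12, and 4 of 5 streak genes were higher. Against cluster 5, 14 of 15 naive genes were lower and 4 of 5 streak genes higher, with T at 64.8 against 1.5 CPM, Fst at 235 against 13.2 CPM and Fgf5 at 102 against 6.77 CPM.

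Cluster 14 lay on the other side. Its streak genes were far above those of cluster 1, with Mesp1 at 366 against 2.70 CPM, Mixl1 at 250 against 3.71 CPM and Lhx1 at 245 against 3.71 CPM, and 9 of 10 streak genes were lower in cluster 1. Epiblast genes were lower in cluster 14, with Foxd3 at 0.679 against 57.1 CPM, Utf1, a gene of pluripotent cells, at 54.3 against 816 CPM and Pou3f1 at 51.6 against 487 CPM, and 7 of 10 naive genes were higher in cluster 1. For all genes the numbers at least 2-fold higher and lower in cluster 1 were 592 and 735 of 9702 against cluster 12, 886 and 452 of 9442 against cluster 5, and 585 and 632 of 9652 against cluster 14.

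At the finer resolution 5 of the deposited labels, cluster 1 fell mainly into 3 groups that differed by day and genotype. Label 6 held 180 of the 341 cells, 164 of them from day 7 and from all 4 genotypes. Against the rest of cluster 1 these cells were higher for Fabp7 (36.3 against 3.60 CPM), the LIM factor Lhx2 (31.6 against 3.00 CPM), Sox9 (52.5 against 9.00 CPM), Eomes (180 against 34.8 CPM) and Sox1 (44.8 against 16.2 CPM), and lower for Dnmt3l (12.4 against 163 CPM) and Dppa3 (3.09 against 40.2 CPM). The streak factor T stood at 63.3 against 66 CPM in them and the neural gene Sox3 at 40.1 against 40.8 CPM. Label 18 held 85 cells, 49 of them from day 4 and 29 from day 7, with Pou3f1 at 611.6 against 434 CPM and Sema6a at 235 against 148 CPM but with T at 3.43 against 90.6 CPM. Label 1 held 59 cells, 50 of them Mtf2 null and 0 WT, with Dnmt3l at 363 against 21.7 CPM, Dppa3 at 84.3 against 6.93 CPM and the sex determination gene Dmrt1 at 38.3 against 2.17 CPM. In label 1 Fgf5 stood at 44.5 against 118 CPM, Penk at 16.9 against 111 CPM and Sema6a at 64.4 against 205 CPM, whereas Pou3f1 stood at 514 against 479 CPM. The markers were thus uneven in label 1, where Otx2 stood at 395 against 422 CPM and Dnmt3b at 1465 against 1806 CPM.

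Between genotypes, cluster 1 cells could be compared with WT at day 7 only, where 49 WT, 72 Mtf2 null and 90 Jarid2 null cells were available. Pou3f1, Sema6a and Dnmt3b were higher in both null lines than in WT, each by less than 2-fold. For Mtf2 null against WT the ratios were 1.63 for Pou3f1 (interval 1.29 to 2.08), 1.62 for Sema6a (1.14 to 2.33) and 1.34 for Dnmt3b (1.20 to 1.5). For Jarid2 null against WT they were 1.84 for Pou3f1 (1.47 to 2.33), 1.46 for Sema6a (1.03 to 2.11) and 1.60 for Dnmt3b (1.43 to 1.78). The lines differed from each other in Fgf5 and Penk. Fgf5 stood at 131 CPM in WT, 153 CPM in Mtf2 null (ratio 1.17, 0.810 to 1.70) and 85.1 CPM in Jarid2 null cells (ratio 0.650, 0.431 to 0.982). Penk stood at 75.3 CPM in WT, 151 CPM in Mtf2 null (ratio 2.01, 1.29 to 3.22) and 86.7 CPM in Jarid2 null cells (ratio 1.15, 0.715 to 1.90). With 1 library each, these intervals hold no error between cultures. The lines also differed in their mix of the finer labels. Over all days, label 6 held 48 of 51 WT, 53 of 167 Mtf2 null and 73 of 117 Jarid2 null cells. Label 18 held 3, 60 and 22 cells in that order, and Pou3f1, Sema6a and Dnmt3b (2205 against 1532 CPM) were higher in it. Label 1, high in Dnmt3l, held 0, 50 and 9. The part of this mix in the differences between genotypes was not tested.

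Of genes with at least 30 UMIs in the cells compared, 4.4% (249 of 5653) were at least 2-fold higher and 4.63% (262) at least 2-fold lower in Mtf2 null than in WT cluster 1 cells, with a median log2 ratio of -0.027. The 30 leading genes were chosen on summed cluster 1 cells, of which 49.0% were Mtf2 null, 34.3% Jarid2 null and 15.0% WT. Genes high in the null lines thus entered the list more readily, so their counts here are no independent measure of the lines. Of the 30 leading genes 21 were read, and 5 of these (Penk, Slc39a8, Jph4, Chst1 and Car4) were higher and 1 (Nfasc) lower, with a median log2 ratio of 0.26. Between Jarid2 null and WT cells 4.5% (266 of 5910) were higher and 3.89% (230) lower, with a median of -0.0015. Of the 23 leading genes read, 5 (among them Slc35d3, Enpp2, Slc5a7 and Unc45b) were higher and 1 (Car4) lower, with a median of 0.31. Slc35d3, Enpp2 and Spon1 were past 2-fold higher in both lines but had too few UMIs in one or both comparisons to be counted (Spon1 37.8 and 39.4 against 5.57 CPM, with 2 UMIs in WT). Car4 was higher in Mtf2 null (376 against 151 CPM) and lower in Jarid2 null cells (74.1 CPM), and it differed the same ways in the other cells of these libraries (236 and 24.4 against 96.3 CPM). The difference between the lines was not tested.

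The genes with the largest ratios between genotypes included several that also differed in the other cells of the libraries. In Mtf2 null cells Hprt, the ribosomal protein gene Rplp1 (3899 against 301 CPM), Cthrc1 (96.1 against 5.57 CPM) and the bHLH factor Olig1 (51 UMIs against 0) were highest relative to WT. Rplp1 differed as much outside the cluster, at 3435 against 336 CPM in the other cells. Kcnj3, a potassium channel gene (3.43 against 106 CPM), Ccnb1ip1 (3.43 against 89.2 CPM) and the imprinted noncoding RNAs Meg3 (41.2 against 641 CPM) and Rian (8.58 against 120 CPM) had the lowest ratios, and Mirg, another imprinted noncoding RNA, was the eighth (8.58 against 69.7 CPM). In Jarid2 null cells Slc4a4 (67.8 against 2.79 CPM), Slc5a7 (63.1 against 2.79 CPM), each with 1 UMI in WT, and the apoptosis gene Pmaip1 (244 against 33.4 CPM) were among the highest after Hprt and Rplp1. Kcnj3 (6.31 against 106 CPM), Meg3 (74.1 against 641 CPM) and the matricellular genes Cyr61 (9.46 against 114 CPM) and Ctgf (28.4 against 190 CPM) were among the lowest. Of the genes 2-fold higher or lower in Mtf2 null cluster 1 cells, 20.6% (51 of 248) and 17.6% (46 of 262) were also past 2-fold the same way in the other cells, and the shares for Jarid2 null were 20.5% (53 of 258) and 29.7% (68 of 229). In the other cells 91 and 114 of all 5650 genes were past 2-fold higher and lower for Mtf2 null, and 145 and 273 of all 5892 genes for Jarid2 null.

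In the gene lists, some FGF and ERK genes were lower in each null line than in WT at day 7. In Mtf2 null cells 3 of 8 were 2-fold lower and 0 higher (Fgf8 65.2 against 181 CPM, Fgf15 96.1 against 284 CPM, Spry2 129 against 318 CPM; median log2 ratio -0.36), and in Jarid2 null cells 3 of 9 were lower and 0 higher (Fgf8 47.3 CPM, Spry1 18.9 against 78 CPM, Spry2 158 CPM; median -0.62). These ratios share the WT cells. The streak factor T stood at 97.5 CPM in WT, 34.3 CPM in Mtf2 null and 162 CPM in Jarid2 null cells. Foxd3 was higher in both null lines, at 68.7 and 89.9 CPM against 33.4 CPM. In Jarid2 null cells 3 of 4 immediate early genes were lower (Junb 34.7 against 97.5 CPM, Egr1 22.1 against 53 CPM, Ier2 33.1 against 80.8 CPM), and in Mtf2 null cells 0 of 4. Dnmt3l stood at 19.5 CPM in WT, 110 CPM in Mtf2 null and 7.88 CPM in Jarid2 null cells. The S phase and G2M lists had 0 of 12 genes past 2-fold in either null line.

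Day 7 cells of the cluster were lower than day 4 cells for several naive genes (4 of 6 read in Mtf2 null and 3 of 5 in Jarid2 null cells, with Nanog higher in Jarid2 null cells) and higher for Eomes and Fst in both lines. Eomes stood at 19.7 and 9.97 CPM at day 4 in Mtf2 null and Jarid2 null cells and at 127 and 126 CPM at day 7, against 229 CPM in WT at day 7. Fst stood at 23.7 and 15.0 CPM at day 4 and at 342 and 382 CPM at day 7. T was at 0 UMIs in the 12 Jarid2 null cells of day 4 and at 162 CPM at day 7, and at 5.26 and 34.3 CPM in Mtf2 null cells. Klf5 stood at 208 and 175 CPM at day 4 and at 34.3 and 63.1 CPM at day 7. Day 7 cells made up 63.6% of the cells on which the leading genes were chosen, so genes high at day 7 entered that list more readily. Counts of leading genes between days are therefore no independent measure of the days. Of the leading genes read, 8 of 26 were 2-fold higher at day 7 in Mtf2 null cells and 1 (Enpp2) lower, beside 205 higher and 275 lower of all 6727 genes. The count for Jarid2 null cells was 11 of 21 higher and 1 lower, beside 592 higher and 253 lower of all 5239 genes, where the day 4 library held 12 cells. Between day 7 and day 10, 2 of 20 leading genes were higher and 0 lower in Mtf2 null cells (222 and 344 of all 4750 genes; median log2 ratio -0.041), and 0 of 18 were higher and 6 lower in Jarid2 null cells (260 and 318 of all 4812 genes), among them Penk, Dnmt3b and Car4, where the day 10 library held 11 cells. The difference between the lines was not tested.

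The leading genes were next read in bulk RNA of cultures that the clustering had not used, which allowed tests over replicate libraries. WT, Mtf2 null and Jarid2 null ESCs were driven as monolayers toward mesoderm or endoderm for 0 (undifferentiated), 5, 24 and 48 h, with 2 replicate libraries for each group and 24 libraries for each series, from 9111880 to 16898264 estimated reads per library. Tests used edgeR's quasi-likelihood model over all genes, and calls needed an adjusted p (Benjamini-Hochberg) below 0.001 and a log2 fold change beyond 1 in either direction. The study's reporting summary describes 2 technical replicates per condition for bulk RNA and for the directed cultures. The p-values thus measure the spread between these libraries and hold none between separate cultures. In bulk samples fewer cells of a type and less RNA per cell cannot be told apart. The 30 genes were chosen from other cells of the same study, so their counts are set beside the share of all genes called.

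In WT cells driven toward endoderm, most leading genes rose between 24 and 48 h. Fgf5 rose from 0.145 and 0.447 CPM in the 24 h replicates to 19.3 and 15.4 CPM at 48 h (log2 fold change 5.79, SE 0.38, edgeR adjusted p = 9.85e-10). Pou3f1 rose from 2.62 and 1.41 CPM to 42.5 and 36.8 CPM (log2 fold change 4.32, SE 0.22, edgeR adjusted p = 3.57e-11). Dnmt3b rose from 78.3 and 79.2 CPM to 633 and 483 CPM (log2 fold change 2.83, SE 0.16, edgeR adjusted p = 1.17e-10). The replicates of the 2 times did not overlap for any of the 3. Of the 29 leading genes tested 16 were called higher and 0 lower, beside 2.2% and 1.68% of all 19261 genes, and their median log2 fold change was 2.07 against 0.0024 for all genes. At an unadjusted edgeR p under 0.05, 23 were higher and 2 lower, and DESeq2 called 17 higher and 0 lower. Sema6a, Enpp2 (2.98 and 4.79 CPM to 27.1 and 29.5 CPM), Sox3, Zic5 (16.3 and 19.2 CPM to 59.5 and 50.8 CPM) and Car4 (0.145 and 0.0639 CPM to 17.5 and 11.8 CPM) were among those that rose. Otx2, which is a marker but not one of the 30, rose from 10.8 and 13.2 CPM to 82.0 and 55.3 CPM (log2 fold change 2.51, edgeR adjusted p = 2.55e-09).

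Penk did not follow, at 1.16 and 1.02 CPM at 24 h and 0.953 and 0.659 CPM at 48 h (edgeR adjusted p = 0.627). The same step lowered 10 of 15 naive genes and raised 13 of 21 formative genes with 1 lower (Etv4), with medians of -1.63 and 1.67 on the log2 scale. The streak list had 2 of 9 genes lower (T and Wnt3a) and 0 higher (median -0.83).

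In WT cells driven toward mesoderm, 6 of 26 leading genes tested rose between 24 and 48 h (Enpp2, Pou3f1, Vrtn, Dnmt3b, Car4 and Zic5) and 1 fell, beside 2.41% and 1.74% of all 18361 genes, with a median log2 fold change of 0.92 against -0.0050 for all genes. At an unadjusted edgeR p under 0.05, 16 were higher and 2 lower, 23 of 26 had a fold change above 0, and DESeq2 called 6 and 1. Pou3f1 rose from 1.90 and 1.24 CPM to 8.56 and 8.32 CPM (log2 fold change 2.44, edgeR adjusted p = 3.24e-06) and Dnmt3b from 56.7 and 60.3 CPM to 169 and 153 CPM (log2 fold change 1.46, edgeR adjusted p = 1.19e-08). Fst fell from 16.7 and 15.8 CPM to 2.09 and 2.77 CPM (log2 fold change -2.75, edgeR adjusted p = 2.8e-08). Fgf5 stayed low, at 0.271 and 0 CPM at 24 h and 0.784 and 0.652 CPM at 48 h. The difference between the endoderm and mesoderm series was not tested, since each was a separate table.

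Before 24 h the leading genes moved in both directions. From the undifferentiated state to 24 h, 4 of 26 were higher and 3 lower toward mesoderm, beside 4.65% and 2.31% of all genes, and 8 of 29 were higher and 2 lower toward endoderm, beside 3.22% and 2.09%. Median log2 fold changes were 0.39 and 0.68 against 0.0089 and -0.024 for all genes. Fst rose in both series, to 16.7 and 15.8 CPM from 0.591 and 0.767 CPM toward mesoderm and to 10.4 and 11.9 CPM from 0.379 and 0.187 CPM toward endoderm. Pou3f1 and Car4 fell in both, and Pou3f1 went from 7.10 and 5.62 CPM to 2.62 and 1.41 CPM toward endoderm (log2 fold change -1.68, edgeR adjusted p = 3.05e-05). Pou3f1 thus fell before it rose, while Dnmt3b was not called at this step in either series (log2 fold changes -0.70 and -0.19). These counts rested on single libraries. Without any 1 of the 4 mesoderm libraries compared the higher calls numbered 1 or 2, and without WT 24 h replicate 2 or WT undifferentiated replicate 2 the lower calls numbered 1. Without any 1 of the 4 endoderm libraries the higher calls numbered 3 to 5, and the lower calls numbered 0 without WT 24 h replicate 2 and 1 without WT undifferentiated replicate 2.

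**Figure D4:**
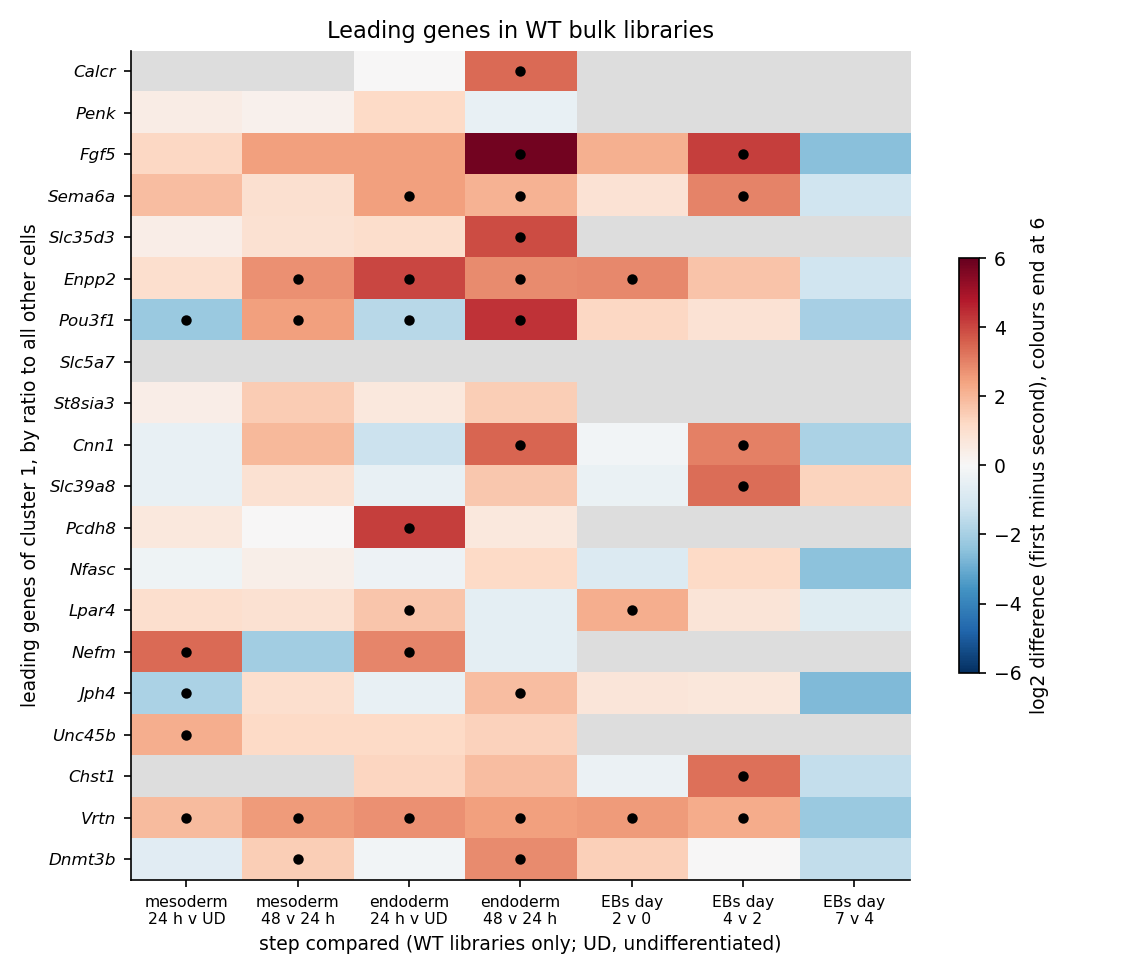
Fold changes (log2, colour scale ending at 6 in each direction) of the 20 leading genes of cluster 1 with the largest ratios (rows) at 7 steps of WT bulk differentiation (columns), with dots on the called genes and grey for genes not tested. The endoderm step from 24 to 48 h has 10 dots among these genes and the embryoid body step from day 2 to day 4 has 6, all of them higher.

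In bulk Mtf2 null cells the markers Sema6a, Pou3f1 and Dnmt3b were above WT at 24 h in both series. Toward endoderm at 24 h Pou3f1 stood at 11.4 and 12.1 CPM in Mtf2 null against 2.62 and 1.41 CPM in WT (log2 fold change 2.56, SE 0.23, edgeR adjusted p = 2.64e-08). Dnmt3b stood at 240 and 208 CPM against 78.3 and 79.2 CPM (log2 fold change 1.51, SE 0.16, edgeR adjusted p = 1.9e-07). Toward mesoderm at 24 h Pou3f1 stood at 6.18 and 4.93 CPM against 1.90 and 1.24 CPM (log2 fold change 1.83, edgeR adjusted p = 0.000112). Otx2 went the other way, at 0.646 and 0.603 CPM against 10.8 and 13.2 CPM toward endoderm (log2 fold change -4.25, edgeR adjusted p = 1.58e-09), and Zic5 was lower in Mtf2 null cells in both series and at both times. The markers of cluster 1 were therefore not raised as a set. Of the leading genes at 24 h, 3 of 26 were called higher and 2 lower in mesoderm, beside 2.78% and 2.94% of all genes, and 5 of 29 higher and 1 lower in endoderm, beside 3.57% and 3.01%, with median log2 fold changes of 0.61 and 0.55 against -0.0048 and -0.0040 for all genes.

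Undifferentiated Mtf2 null cells had 5 of 26 leading genes higher and 2 lower in the mesoderm series, beside 6.47% and 4.68% of all genes, and 3 of 29 higher and 1 lower in the endoderm series, beside 6.23% and 4.77%. Median log2 fold changes were -0.24 and 0.16 against -0.021 and -0.048 for all genes. The share of leading genes called was near that of all genes in the endoderm series. Sema6a stood at 3.35 and 3.09 CPM against 0.379 and 0.375 CPM in WT in the endoderm series (log2 fold change 3.06, edgeR adjusted p = 2.03e-07), whereas Pou3f1 stood at 6.78 and 7.54 CPM against 7.10 and 5.62 CPM. The targeted gene Mtf2 was lower in all 4 comparisons, for example 34.8 and 31.1 CPM against 448 and 509 CPM in undifferentiated cells of the endoderm series. Hprt stood at 75.5 to 93.9 CPM in the Mtf2 null libraries compared and at 0.181 to 0.511 CPM in the WT ones, so the lines differed by more than the targeted gene, and the part of this in the results was not tested. Leaving out single libraries changed these counts. In undifferentiated mesoderm-series cells the higher calls were 2 without either Mtf2 null replicate and 1 without WT replicate 2, and the lower calls 1 without either Mtf2 null replicate or without WT replicate 1. At 24 h toward mesoderm the higher calls were 1 without Mtf2 null replicate 1 or WT replicate 2, and the lower calls 0 without Mtf2 null replicate 2 and 1 without any of the other 3 libraries. At 24 h toward endoderm the higher calls were 2 without WT replicate 2 and 3 without Mtf2 null replicate 1.

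The libraries labelled Jarid2 null had no leading gene called in either direction in any of the 4 comparisons with WT. Undifferentiated libraries had 0 of 26 in the mesoderm series, beside 0.169% of all genes higher and 0.202% lower, and 0 of 29 in the endoderm series, beside 0.389% and 0.353%. At 24 h they had 0 of 26, beside 0.735% and 1.24%, and 0 of 29, beside 0% and 0.0312%. At an unadjusted edgeR p under 0.05, 3 leading genes were higher and 4 lower, 4 and 1, 5 and 7, and 3 and 1 in the same order, and DESeq2 called 0 in all 4. In these libraries Jarid2 itself was not called lower, at 329 and 297 CPM against 467 and 352 CPM in undifferentiated cells of the endoderm series, and Hprt was near its level in WT, at 0.222 to 0.832 CPM in the libraries compared, unlike the Jarid2 null single cells with 459 CPM. Whether these libraries and the Jarid2 null single cells came from the same line was not tested, and the counts are given by label only.

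The EB bulk data followed the time course of the single-cell EBs in 3 other WT lines, J1, JM8 and Pcl1-3 WT, at days 0, 2, 4 and 7, with 1 sample for each line and day and 5450149 to 15605645 recovered reads per sample. Values are reads divided by a size factor, and limma was fitted on log2(value + 1) with a term for the line, so that fold changes of low genes are understated. From day 2 to day 4 many leading genes rose. Fgf5 went from 17.2 (J1), 7.47 (JM8) and 1.18 (Pcl1-3 WT) at day 2 to 137, 152 and 87.5 at day 4 (log2 difference 4.15, SE 1.06, limma adjusted p = 0.0187). Sema6a went from 71.6, 159 and 34.6 to 444, 1096 and 403 (log2 difference 2.97, limma adjusted p = 0.00179) and Car4 from 21.8, 49.7 and 13.4 to 728, 974 and 402 (log2 difference 4.69, limma adjusted p = 0.000114). All 3 genes were higher in 3 of 3 lines. Of the 21 leading genes tested 12 were called higher and 0 lower at an adjusted p under 0.05, beside 14.7% and 15.3% of all 11968 genes, and the median log2 difference was 1.99 against -0.053 for all genes. At an unadjusted limma p under 0.05, 14 were higher and 0 lower, and edgeR on the recovered reads called 14 and 0.

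This step also changed many other genes. The naive list had 9 of 15 genes lower and 0 higher (median log2 difference -2.36), the formative list 5 of 19 higher and 4 lower (0.039), and the streak list 4 of 9 higher (Fst, Lhx1, T and Wnt3) and 0 lower (3.46). Pou3f1 and Dnmt3b were not called, and they were high at day 2 already in J1 and JM8. Pou3f1 stood at 46.5, 51.8 and 55.6 at day 0, 137, 194 and 67.3 at day 2, and 96.5, 315 and 371 at day 4. Dnmt3b stood at 431, 1236 and 553 at day 0, 2051, 2776 and 1036 at day 2, and 1764, 2066 and 1746 at day 4. Pcl1-3 WT was the lowest line at day 2 for both. Penk, which was below the level needed for the test, stood at 2.72, 3.15 and 4.24 at day 2 and at 35, 18.4 and 11.0 at day 4.

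From day 0 to day 2, 4 of 21 leading genes rose (Enpp2, Lpar4, Vrtn and Sall2) and 0 fell, beside 8.82% and 6.39% of all genes (median log2 difference 0.73 against 0.014, 8 higher and 0 lower at an unadjusted limma p under 0.05, 3 higher and 0 lower by edgeR). Day 0 samples were named as monolayers and later ones as EBs, so this step also compared culture forms. From day 4 to day 7, 0 were called in either direction, beside 0.0501% and 0.0251% of all genes, with a median log2 difference of -1.44 against 0.010 for all genes. At an unadjusted limma p under 0.05, 1 was higher and 15 lower, and edgeR called 0 and 0. Fgf5 was at 4.88, 16.7 and 93.6 at day 7 and Pou3f1 at 13.7, 62.1 and 193, so that Pcl1-3 WT was the highest line for both. In the single-cell E14 EBs, by contrast, cluster 1 was 0.604% of cells at day 4 and 15.5% at day 7. The calls of these steps depended on single lines, which share each adjacent day. Without JM8 the day 2 to day 4 calls numbered 2 and the day 0 to day 2 calls 0, and from day 4 to day 7 the lower calls numbered 1 without J1 and 5 without Pcl1-3 WT.

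**Figure D5:**
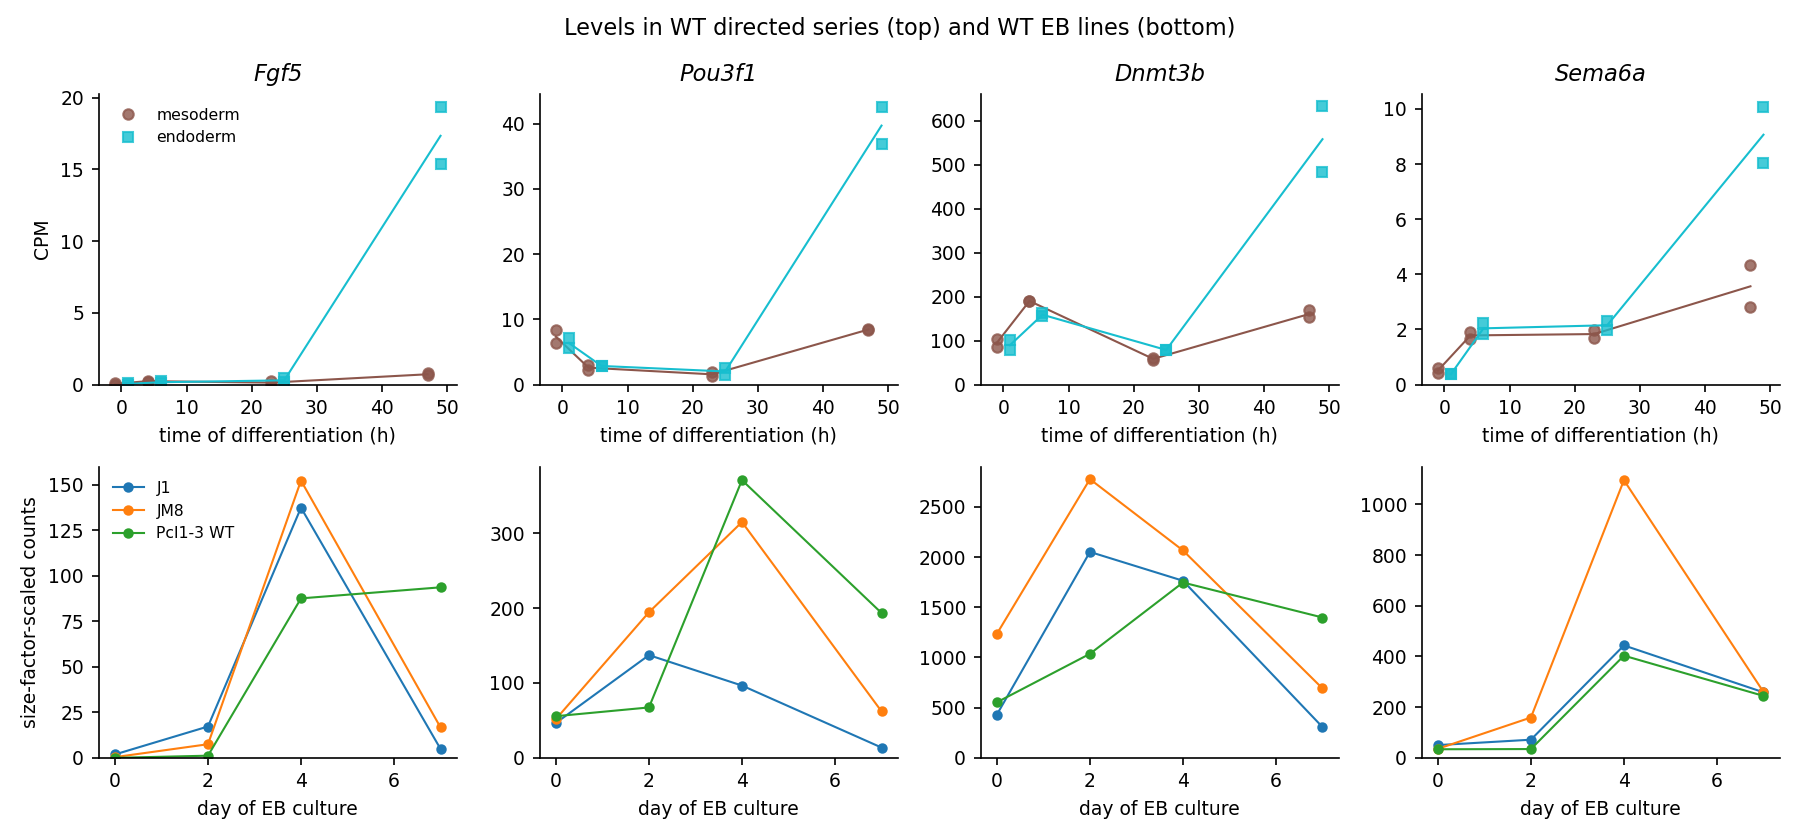
Levels of Fgf5, Pou3f1, Dnmt3b and Sema6a in WT bulk RNA, with the 2 replicates of the mesoderm and endoderm series (CPM, linear axis, points of the series set slightly apart, lines through the means) against hours in the top row and the 3 WT lines of the EB series (reads divided by a size factor, linear axis) against days in the bottom row. Fgf5 reaches 19.3 and 15.4 CPM at 48 h toward endoderm and stays under 1 CPM toward mesoderm, and in EBs it stands at 87.5 to 152 at day 4.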

How the data were processed

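Single live EB cells were sorted into plates and made into 3′ libraries with UMIs. The authors aligned reads with Bowtie2, counted them with HTSeq, removed cells with few genes, and clustered with Seurat after regressing out the library. The deposited table holds UMI counts per gene and cell, without normalization, for 15830 genes and 4949 cells, and cluster 1 was taken from the deposited cluster column at resolution 2.5. Doublets were limited by the sort of single cells and no caller was run. For the directed cultures the authors deposited estimated counts from Salmon, which were rounded to whole numbers. For bulk EBs the deposited signal is reads divided by a DESeq2 size factor, from which whole reads were recovered in every column used. The genome builds named in the submitters' notes are mm10 and GRCm38.

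Counts were summed over cells of a library and scaled to CPM. Intervals are exact Poisson, conditional exact for ratios, and Clopper-Pearson for shares. Ratios were read for genes with at least 10 CPM in either group, and a sum under 3 UMIs was set to 3. The 2 bulk series were fitted with edgeR 4.0.16 (quasi-likelihood, 24 libraries in each fit) and bulk EBs with limma 3.58.1 (trend, log2(value + 1), mean value of at least 20, 12 samples, technical runs of a sample averaged), with Benjamini-Hochberg adjustment over all genes, R 4.3.3 and Python 3.11.15. DESeq2 1.42.0, edgeR on recovered reads, other filters, another pseudocount, a replicate block and left-out libraries were alternatives. The fits were tested on simulated data. Of the EB values, 23 columns of other samples were not used, and neither were the gene tables of single libraries. The 2 columns of the libraries labelled Jarid2 null 48 h in the endoderm table, headed with another hour, were matched to their labels by library number.

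Genes were named by rule: the 6 markers, the 30 highest and 15 lowest ratios of cluster 1 to other cells above the stated levels, gene lists, and up to 8 genes in each direction for each genotype or similar cluster. The members, lists and rules were chosen with earlier results of these data known. Some genes that the rule names are not reported here.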

Additional observations from a re-analysis of the deposited data

Results flagged for a closer look

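Car4, a carbonic anhydrase of the cell surface, differed from WT in opposite directions in cluster 1 cells of the null lines at day 7. The ratio to WT was 2.5 in Mtf2 null cells (interval 1.85 to 3.43, 219 against 54 UMIs) and 0.492 in Jarid2 null cells (interval 0.326 to 0.742, 47 UMIs). With 1 library for each genotype the difference between the lines was not tested, and the intervals cover counting error only. Both ratios share the WT library. The other cells of the same libraries differed the same ways (236 CPM in Mtf2 null and 24.4 CPM in Jarid2 null against 96.3 CPM in WT, ratios 2.45 and 0.253).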

How the results depend on the processing

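Alternatives were run for counts of called genes, level ratios and shares, and no level ratio turned direction. Genotype ratios, list medians and finer labels were not rerun. The shares of the 16 libraries held by cluster 1 each moved by less than their interval. Of 184 level ratios 81 moved beyond their interval, and 11 of 12 shares of cells with a UMI moved with thinning. For the counts of leading genes called in bulk, 169 of 212 values stayed within 1.5 times. DESeq2 gave 2 higher for mesoderm WT 24 h, 1 lower for undifferentiated Mtf2 null in the mesoderm series and 2 lower for endoderm Mtf2 null at 24 h. Without a filter the counts were 2 lower for mesoderm WT 48 h, 1 higher for undifferentiated libraries labelled Jarid2 null in the mesoderm series, 1 higher and 1 lower for the same label at 24 h, 7 higher and 3 lower for undifferentiated Mtf2 null in the endoderm series, and 2 lower at 24 h. For EB day 2 a pseudocount of 8 gave 2 higher and no line term gave 0. Replicates share numbers but no stated batch, with deviations correlated from -0.149 to 0.267. The replicate block gave 2 lower for endoderm Mtf2 null at 24 h and changed no other leading count by over 1.5 times. A crossed pairing, added after the data were seen, gave 4 higher and 2 lower for undifferentiated Mtf2 null in the mesoderm series.

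With 1 library or line left out, higher leading calls ranged from 1 to 2 (mesoderm WT 24 h), 5 to 6 (WT 48 h), 1 to 4 (Mtf2 null, undifferentiated) and 1 to 3 (24 h), and in endoderm from 3 to 5, 12 to 15, 2 to 4 and 2 to 5. Lower calls ranged from 1 to 3, 1 to 1, 1 to 2 and 0 to 1 in mesoderm and 0 to 2 for endoderm WT 24 h. In EBs they ranged from 0 to 3 and 2 to 13 higher at days 2 and 4 and 0 to 5 lower at day 7. Leading genes kept without a library's cells ranged from 23 to 29. Cause was not tested.

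Among all genes, 77 of 212 counts moved by over 1.5 times. DESeq2 called 57 against 31 higher for undifferentiated libraries labelled Jarid2 null (mesoderm series). Without a filter mesoderm WT 24 h had 790 against 424 lower and WT 48 h 703 against 443 higher, and for libraries labelled Jarid2 null the split turned from 31 higher and 37 lower to 128 and 119 (undifferentiated, mesoderm series) and from 0 and 6 to 39 and 35 (24 h, endoderm). In EBs no line term gave 66 and 43 at day 2, and leaving out JM8 gave 0 and 0 there and 37 and 9 at day 4. Depth limits the day 4 and day 10 Jarid2 null levels, which rest on 12 and 11 cells.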
